A study of Homo sapiens with 15 samples.

Results

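The 7 genes described here are TOP2B, USP25, AGFG1, DNPH1, CA2, SYT17 and NCR3LG1, whose transcripts were low after transfection with GAPDH siRNA. They were chosen by name, 7 of the 14884 genes with a named probe set, because they stood among the largest decreases between the GAPDH siRNA arrays and the non-silencing siRNA arrays. Each had 1 named probe set, so no choice between probe sets was needed. The values of those 2 groups chose the genes, which were also put forward as particular to GAPDH siRNA among all groups. The distance of the GAPDH siRNA arrays from the rest is therefore given below as a description, without a test.

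Total RNA of HEK293T, an established human embryonic kidney line, was measured on 15 whole-transcript arrays in 5 groups of 3. GAPDH siRNA was directed at the glycolytic enzyme glyceraldehyde-3-phosphate dehydrogenase. LOC550643 siRNA, a pool of 4, was directed at the transcript of NoBody, a small protein of P-bodies, Dcp2 siRNA at the mRNA decapping enzyme, and DcpS siRNA at the enzyme that degrades the cap released by decay. The control was a non-silencing siRNA. Cells of every group, the controls included, were treated 48 hours after transfection with 1 ug per mL of actinomycin D, for 4 hours. Actinomycin D blocks transcription, so a level reflects both synthesis before the block and decay during it, and the contributions cannot be told apart here. These are bulk samples, in which fewer cells with a transcript and less of it per cell cannot be told apart either. Nothing in the labels says that the 3 samples of a group were separate cultures, so the p-values rest on a spread between samples that could be purely technical.

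The genes have no shared pathway in their textbook roles. TOP2B encodes topoisomerase II beta, which passes one DNA duplex through a break in another and is the form of the enzyme that nondividing cells keep. USP25 is a protease that removes ubiquitin from proteins. AGFG1 carries a GTPase-activating domain for ARF proteins together with phenylalanine-glycine repeats and is known as a cellular cofactor of the HIV Rev protein. DNPH1 hydrolyses deoxynucleoside monophosphates and so cleans the nucleotide pool. CA2 is a cytosolic carbonic anhydrase, which interconverts carbon dioxide and bicarbonate and is abundant in kidney tubule cells. SYT17 belongs to the synaptotagmins, proteins of membrane traffic. NCR3LG1 is a surface ligand of the B7 family that is recognised by the NKp30 receptor of natural killer cells.

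The genes lie on 7 different chromosomes, TOP2B on 3, USP25 on 21, AGFG1 on 2, DNPH1 on 6, CA2 on 8, SYT17 on 16 and NCR3LG1 on 11. Promoter windows of RefSeq (GRCh38.p14), from 250 bases before to 50 after a gene's start, were examined for 5 of the 7 genes. Those of CA2 and SYT17 were not examined, so the motif counts do not cover them. Windows of the 3 genes with the largest decreases against non-silencing siRNA are shown because these genes were low together. Capitals mark GGGCGG (the GC box), CCAAT and CACGTG (the E box), read on both strands. The windows are TOP2B, chr3:25664858-25665157, minus strand, DNPH1, chr6:43229432-43229731, minus strand, and USP25, chr21:15729732-15730031, plus strand.
TOP2B: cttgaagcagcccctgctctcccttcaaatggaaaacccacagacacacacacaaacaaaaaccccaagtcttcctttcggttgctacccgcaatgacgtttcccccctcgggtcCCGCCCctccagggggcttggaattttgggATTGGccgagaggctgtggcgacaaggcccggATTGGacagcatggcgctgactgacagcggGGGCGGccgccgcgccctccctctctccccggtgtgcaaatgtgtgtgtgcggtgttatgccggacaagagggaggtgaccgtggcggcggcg
DNPH1: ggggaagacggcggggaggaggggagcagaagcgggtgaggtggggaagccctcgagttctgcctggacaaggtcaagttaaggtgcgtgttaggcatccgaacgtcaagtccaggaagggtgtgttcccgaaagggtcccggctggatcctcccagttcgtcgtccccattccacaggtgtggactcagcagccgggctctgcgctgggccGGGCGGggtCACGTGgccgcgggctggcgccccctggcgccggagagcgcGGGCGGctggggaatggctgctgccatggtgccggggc
USP25: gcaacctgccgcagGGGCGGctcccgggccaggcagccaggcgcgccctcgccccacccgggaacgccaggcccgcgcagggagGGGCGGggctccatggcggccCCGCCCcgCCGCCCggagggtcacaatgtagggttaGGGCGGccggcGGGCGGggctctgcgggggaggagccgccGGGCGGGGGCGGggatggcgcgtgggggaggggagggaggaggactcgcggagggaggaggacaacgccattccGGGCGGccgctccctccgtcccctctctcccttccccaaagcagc
The GC box occurred 2 times in the TOP2B window, 2 times in that of DNPH1 and 9 times in that of USP25, with 1 pair of the 9 directly adjoining. It was present in all 5 genes' windows, and 45.0% of all 35116 windows held it. CCAAT was found 2 times in the TOP2B window shown and in none of the other examined genes' windows, against 34.6% of all windows. CACGTG was found 1 time, in the DNPH1 window, against 7.26% of all windows. Neither TATAAA nor CGGAAG, an ETS motif, occurred in any of them, against 11.5% and 19.5% of all windows. The G and C content was 62.3% for TOP2B, 69.0% for DNPH1 and 79.0% for USP25, and the median over all windows was 58.7%. TOP2B has a further annotated start, whose window had 80.0% G and C and 1 GC box. The windows of AGFG1 and NCR3LG1 had 57.3% and 68.0% and held 2 GC boxes each.

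All values are probe set levels on a log2 scale, so that a difference of 1 is a factor of 2, and levels of different genes are not set against each other. Percentages of a control level are ratios of probe set values, which were not calibrated here to amounts of RNA. The arrays had medians of 4.01 to 4.08, and no 2 arrays were identical. Of 12 genes listed as HEK293T markers 8 were measured, IRS4 and LIN28B among them, and their mean level lay between 7.21 and 7.33 in GAPDH siRNA arrays and between 7.19 and 7.34 in non-silencing arrays. Single markers moved apart within that mean, with IRS4 at -0.81 (SE 0.26, limma adjusted p = 0.138), VIM at 0.39 and KRT8 at 0.32. By limma 0 of the 8 were called, against 2.0% of all genes. An unadjusted p under 0.05 was found for 3 of the 8, against 13.6% of all genes. Of 8 fibroblast markers 3 were measured, with means of 3.62 to 3.77 and 3.41 to 3.64. Of 10 blood cell markers 4 were measured, with means of 4.86 to 5.02 in GAPDH siRNA arrays and 4.47 to 4.57 in non-silencing arrays. CD68, a lysosomal protein of macrophages, was the only one of the 4 that was called, as higher by 1.10 (SE 0.11, limma adjusted p = 3.603e-05). Its level was 6.42, 6.41 and 6.17 in the non-silencing arrays. It was above these with Dcp2 siRNA (6.68, 7.01 and 6.71) and LOC550643 siRNA (6.51, 6.55 and 6.54) too, but not with DcpS siRNA (6.04, 6.25 and 6.10). SPI1 differed by 0.37 between GAPDH and non-silencing siRNA (SE 0.15, limma adjusted p = 0.279), CD14 by 0.05 and LYZ by 0.08. Of the 4, 2 had an unadjusted p under 0.05, against 13.6% of all genes, and 0 were lower, against 50.0% of all genes. The part of these markers in the results below was not tested. Within groups, the arrays varied together along an axis, the first principal component of the within-group residuals, which held 24.7% of their variance. Replicate 1 of the non-silencing arrays scored highest on it, at 20.2, followed by replicate 1 of the DcpS siRNA arrays, at 16.7. The GAPDH siRNA arrays scored 1.05, 11.6 and -11.8. Within groups, TOP2B, USP25, DNPH1, CA2, SYT17 and NCR3LG1 went with that score (correlations of 0.64 to 0.82 over 15 arrays) and AGFG1 went against it (-0.54).

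GAPDH, the siRNA's own target, was measured at 6.10, 6.11 and 5.69 in the GAPDH siRNA arrays. In the other 12 arrays it lay between 7.02 and 7.36. Its level with GAPDH siRNA was 42.6% of that with non-silencing siRNA.

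TOP2B, the topoisomerase gene, stood furthest from the rest. It was at 7.30, 7.26 and 7.26 in the GAPDH siRNA arrays. It was at 8.85, 8.60 and 8.56 in LOC550643, 8.30, 8.41 and 8.41 in Dcp2, 8.71, 8.54 and 8.64 in DcpS and 8.67, 8.42 and 8.50 in non-silencing siRNA arrays. No GAPDH siRNA array came within 0.99 of any other array, the widest such gap of all 14884 genes, with GAPDH itself in second place at 0.91. The mean was 7.28 ± 0.02 with GAPDH siRNA and 8.53 ± 0.13 with non-silencing siRNA (SD, n = 3 each), a difference of -1.25 (SE 0.10) that leaves 41.9% of the control level. Against the other siRNAs the difference was -1.39 (LOC550643), -1.10 (Dcp2) and -1.35 (DcpS).

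USP25, the ubiquitin protease gene, had the same shape. It was at 6.92, 6.80 and 6.84 in the GAPDH siRNA arrays. It was at 8.15, 8.05 and 8.03 in LOC550643, 7.70, 7.78 and 7.79 in Dcp2, 8.04, 7.91 and 7.80 in DcpS and 8.05, 7.90 and 7.84 in non-silencing siRNA arrays. The gap to the nearest other array was 0.77, rank 4 of all genes. The mean was 6.85 ± 0.06 with GAPDH siRNA and 7.93 ± 0.11 with non-silencing siRNA (SD, n = 3 each), or 47.4% of the control level. In both TOP2B and USP25 the Dcp2 siRNA arrays came next after the GAPDH siRNA arrays and the LOC550643 arrays were on average highest.

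AGFG1, the ARF regulator, was at 7.82, 7.38 and 7.71 in the GAPDH siRNA arrays. It was at 8.76, 8.70 and 8.73 in LOC550643, 8.82, 8.77 and 8.98 in Dcp2, 8.69, 8.79 and 8.81 in DcpS and 8.52, 8.68 and 8.69 in non-silencing siRNA arrays. Its 12 other arrays spanned 0.47, close to the 0.45 of USP25, and the gap below them was 0.70. AGFG1 was the 1 gene of the 7 whose control arrays came next above the GAPDH siRNA arrays. The mean was 7.64 ± 0.23 with GAPDH siRNA and 8.63 ± 0.10 with non-silencing siRNA (SD, n = 3 each), a difference of -0.99 (SE 0.11), or -0.86 without GAPDH siRNA replicate 2, its lowest array.

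DNPH1, the nucleotide hydrolase gene, had the largest decrease of all genes between GAPDH and non-silencing siRNA over all arrays, but not without 1 of 2 arrays. It was at -1.17 without replicate 1 of the non-silencing arrays and at -1.20 without replicate 3 of the GAPDH siRNA arrays, against -1.18 and -1.25 for TOP2B. It was at 8.39, 8.41 and 8.11 in the GAPDH siRNA arrays. It was at 9.39, 9.47 and 9.40 in LOC550643, 9.28, 9.27 and 9.41 in Dcp2, 9.76, 9.45 and 9.58 in DcpS and 9.84, 9.41 and 9.54 in non-silencing siRNA arrays. The gap to the nearest other array was 0.85, rank 3. The mean was 8.30 ± 0.17 with GAPDH siRNA and 9.60 ± 0.22 with non-silencing siRNA (SD, n = 3 each), a difference of -1.29 (SE 0.12) that leaves 40.8% of the control level.

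CA2, the carbonic anhydrase gene, differed among the other siRNAs as well. It was at 5.997, 5.89 and 5.80 in the GAPDH siRNA arrays. It was at 6.76, 6.80 and 6.54 in LOC550643, 6.35, 6.48 and 6.67 in Dcp2, 7.24, 7.04 and 6.998 in DcpS and 7.20, 6.73 and 6.80 in non-silencing siRNA arrays. The 12 other arrays spanned 0.89, the widest range of the 7 genes, and the gap below them was 0.36. The mean was 5.90 ± 0.10 with GAPDH siRNA and 6.91 ± 0.26 with non-silencing siRNA (SD, n = 3 each). The difference of -1.01 (SE 0.13) was -0.87 without replicate 1 of the non-silencing arrays and was larger against DcpS siRNA (-1.20) than against Dcp2 siRNA (-0.60).

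SYT17, the synaptotagmin gene, had 3 levels. It was at 5.64, 5.58 and 5.68 in the GAPDH siRNA arrays. It was at 6.25, 6.25 and 6.21 in LOC550643, 6.21, 6.15 and 6.31 in Dcp2, 6.44, 6.26 and 6.20 in DcpS and 6.91, 6.54 and 6.50 in non-silencing siRNA arrays. The control arrays thus lay above every other array and the GAPDH siRNA arrays below every other array. The mean was 5.63 ± 0.05 with GAPDH siRNA and 6.65 ± 0.22 with non-silencing siRNA (SD, n = 3 each), a difference of -1.02 (SE 0.11), or -0.89 without replicate 1 of the non-silencing arrays. Against LOC550643, Dcp2 and DcpS siRNA it was -0.61, -0.59 and -0.66. LOC550643, Dcp2 and DcpS siRNA stood at -0.41, -0.42 and -0.35 against the same control arrays.

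NCR3LG1, the natural killer cell ligand gene, was the least separated. It was at 6.66, 6.84 and 6.30 in the GAPDH siRNA arrays. It was at 7.80, 7.72 and 7.35 in LOC550643, 7.07, 7.43 and 7.39 in Dcp2, 7.04, 7.18 and 7.10 in DcpS and 7.79, 7.56 and 7.43 in non-silencing siRNA arrays. The gap below the nearest other array, a DcpS siRNA array, was 0.20, rank 63 of all genes. The mean was 6.60 ± 0.27 with GAPDH siRNA and 7.60 ± 0.18 with non-silencing siRNA (SD, n = 3 each), a difference of -0.99 (SE 0.15), or -0.85 without GAPDH siRNA replicate 3, its lowest array. The difference from DcpS siRNA, -0.51 (SE 0.15), was the smallest that any of the 7 genes showed between GAPDH siRNA and another group.

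**Figure D1:**
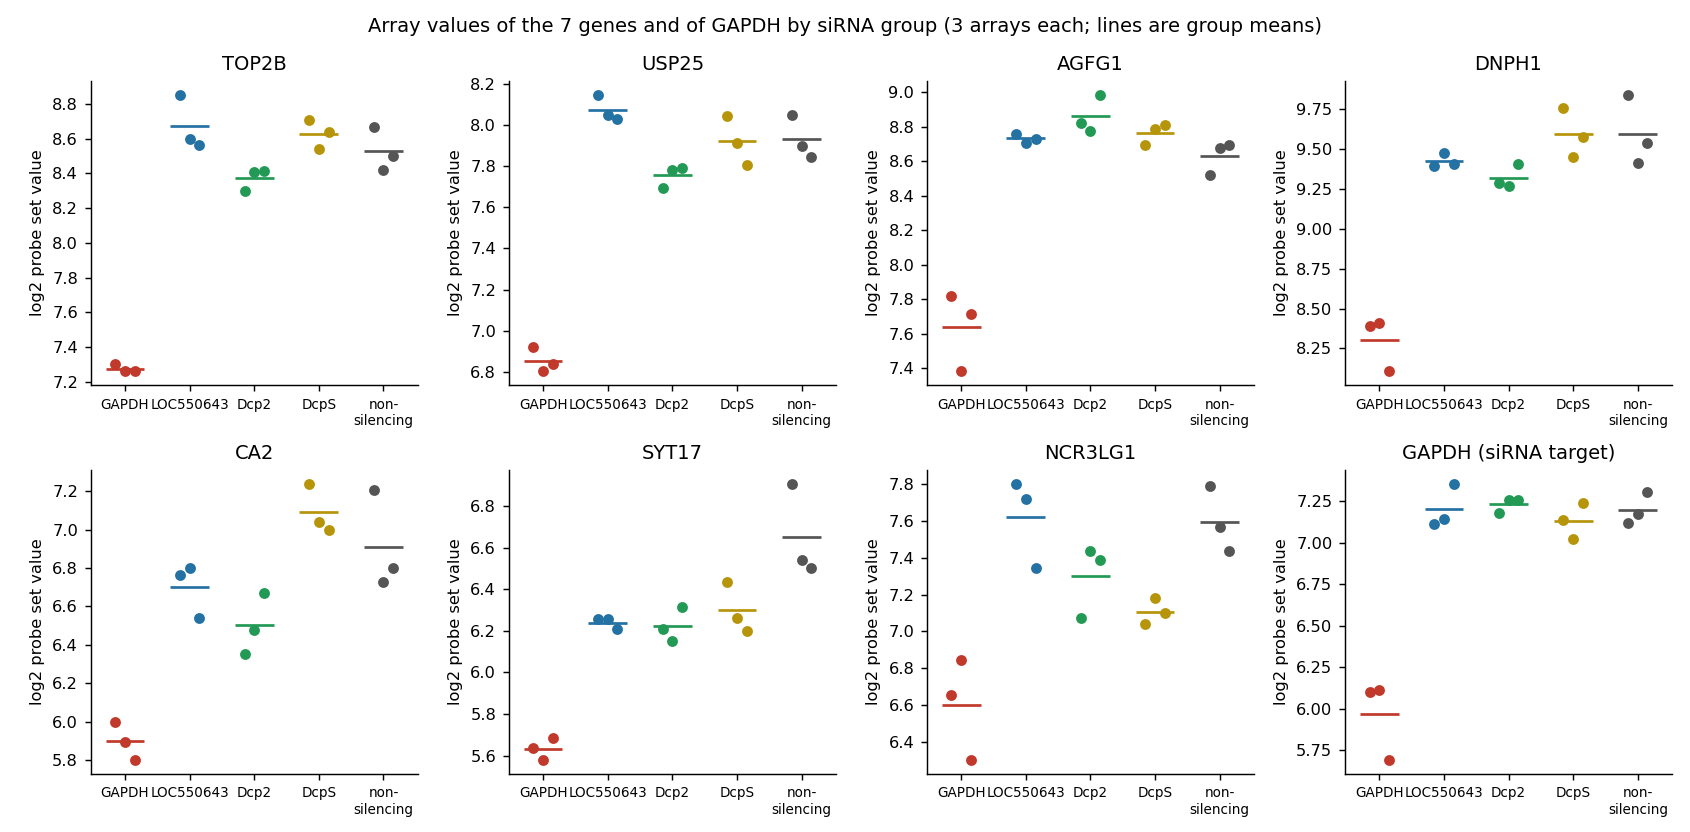
Log2 probe set values of the 7 genes and of GAPDH in each array, by siRNA group (points are arrays, lines are means of 3). Each of the 7 genes has its 3 lowest values in the GAPDH siRNA arrays, with a gap that runs from 0.20 for NCR3LG1 to 0.99 for TOP2B.

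For each of the 7 genes the 3 GAPDH siRNA arrays lay below all 12 other arrays. This held for 244 of the 14884 genes, 1.64%, and nothing is read from the members' count, since they were chosen on these arrays. Among the decreases from non-silencing siRNA, by which they were chosen, they held ranks 1, 2, 5, 9, 10, 13 and 14. The member with the smallest difference was AGFG1, at -0.99, and the next gene in that order, CD63, which was not among those chosen, was also at -0.99. The median difference of the 7 genes was -1.02 against non-silencing, -1.09 against LOC550643, -0.90 against Dcp2 and -1.12 against DcpS siRNA. The corresponding medians over all genes lay within 0.01 of 0. With the score on the shared axis as a covariate the differences from non-silencing siRNA were -0.92 to -1.23. These 4 comparisons share the GAPDH siRNA arrays and are given side by side only.

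**Figure D2:**
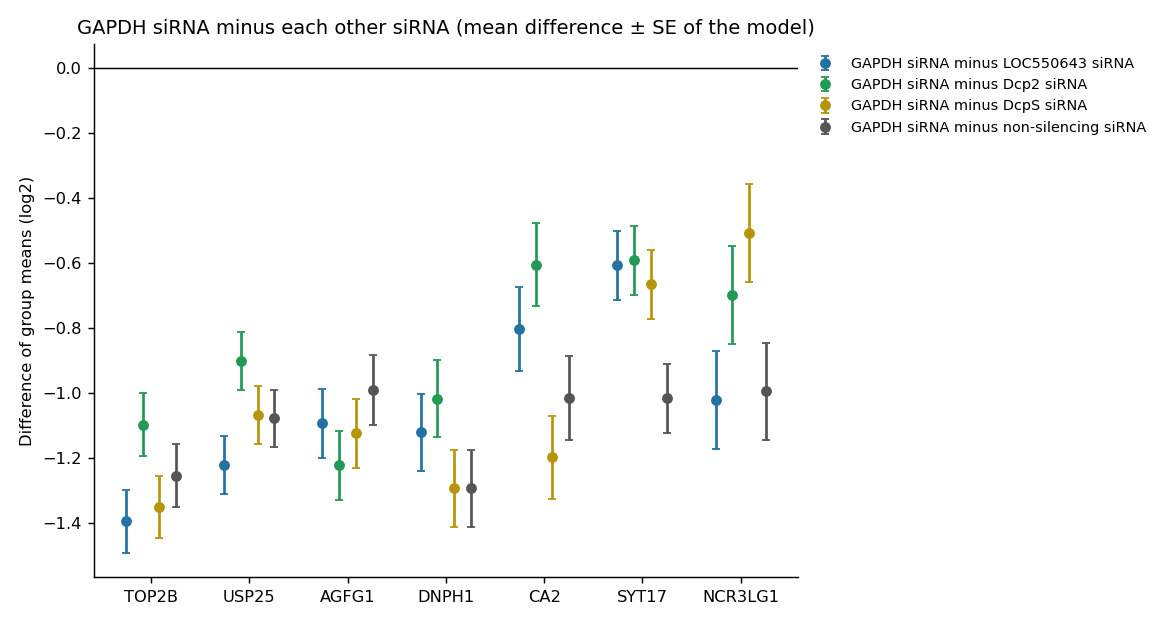
Difference of group means, GAPDH siRNA minus each other siRNA, in log2 units for the 7 genes, with the standard error of the 15-array model as bars. TOP2B, USP25, AGFG1 and DNPH1 lie between -0.90 and -1.39 against all 4 groups, whereas CA2, SYT17 and NCR3LG1 spread up to -0.51.

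In the order of group means, most neighbouring groups above the GAPDH siRNA group had overlapping arrays. That does not extend to groups further apart in the order. For CA2 the highest Dcp2 siRNA array, at 6.67, lay below the lowest DcpS siRNA array, at 6.998. For DNPH1 and CA2 the arrays of each neighbouring pair among the other 4 groups overlapped, and the same was true of NCR3LG1. For TOP2B the Dcp2 siRNA arrays lay below the non-silencing arrays without overlap, by 0.16 on average (pooled SD 0.10). For USP25 the Dcp2 siRNA arrays lay below the DcpS siRNA arrays by 0.17, without overlap (pooled SD 0.09). For AGFG1 the LOC550643 siRNA arrays lay above the non-silencing arrays by 0.10 (pooled SD 0.07), and for SYT17 the non-silencing arrays lay above the DcpS siRNA arrays by 0.35 (pooled SD 0.18). How many of all genes lack overlap between a pair of groups was not counted. Such separation, here and in the comparisons below, is therefore a description only.

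The LOC550643, Dcp2 and DcpS siRNA arrays were not used to choose the genes by their difference from the control, and differences among these 9 arrays were tested with limma over all 14884 genes. The genes were also put forward as particular to GAPDH siRNA, so the choice was not blind to these groups. Such a choice can favour genes that differ little among these 9 arrays, so nothing is read from low counts of called members. CA2 was lower with Dcp2 than with DcpS siRNA, by -0.59 (SE 0.12, 95% interval -0.85 to -0.34, limma adjusted p = 0.0144), at 6.50 ± 0.16 and 7.09 ± 0.13 (SD, n = 3 each). All 3 Dcp2 siRNA arrays lay below the 3 DcpS siRNA arrays. CA2 was the 1 gene of the 7 to pass in that comparison, in which 4.96% of all genes passed. An unadjusted p under 0.05 was found for 3 of the 7, against 19.1% of all genes. Its call did not hold without Dcp2 siRNA replicate 1 or 2 or DcpS siRNA replicate 1, nor with all probe sets tested (limma adjusted p 0.0547 to 0.0706), while the difference stayed between -0.51 and -0.68.

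NCR3LG1 differed by 0.51 between LOC550643 and DcpS siRNA (SE 0.13, 95% interval 0.22 to 0.81, limma adjusted p = 0.05005), at 7.62 ± 0.24 and 7.11 ± 0.07 (SD, n = 3 each), just short of the threshold. All 3 LOC550643 siRNA arrays lay above the 3 DcpS siRNA arrays, and the adjusted p ranged from 0.0204 to 0.170 over the alternatives. CA2 differed by -0.39 in that comparison (95% interval -0.65 to -0.14, limma adjusted p = 0.0753). By limma's test 0 of the 7 genes passed there, with 2 at an unadjusted p under 0.05. Of all genes 5.05% passed, and 18.8% had an unadjusted p under 0.05.

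Between LOC550643 and Dcp2 siRNA limma called 0 of the 7 genes, with 3 at an unadjusted p under 0.05. Of all genes 2.36% passed, and 15.9% had an unadjusted p under 0.05. USP25 was at 8.07 ± 0.06 with LOC550643 and 7.76 ± 0.05 with Dcp2 siRNA (SD, n = 3 each), a difference of 0.32 (95% interval 0.12 to 0.52, limma adjusted p = 0.103). TOP2B differed by 0.30 (95% interval 0.08 to 0.52, limma adjusted p = 0.163). The arrays of the 2 groups did not overlap for either gene, from which nothing is read, as the share of all genes without overlap was not counted. NCR3LG1 differed by 0.32 (95% interval 0.03 to 0.62, limma adjusted p = 0.254), and its arrays in the 2 groups overlapped.

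AGFG1 and SYT17 showed the smallest differences among these 9 arrays. The 3 differences of AGFG1 lay between -0.13 and 0.10, with intervals from -0.32 to 0.29. Those of SYT17 lay between -0.07 and 0.01, with intervals from -0.28 to 0.22. The precision of these values is limited by 3 arrays a group.

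**Figure D3:**
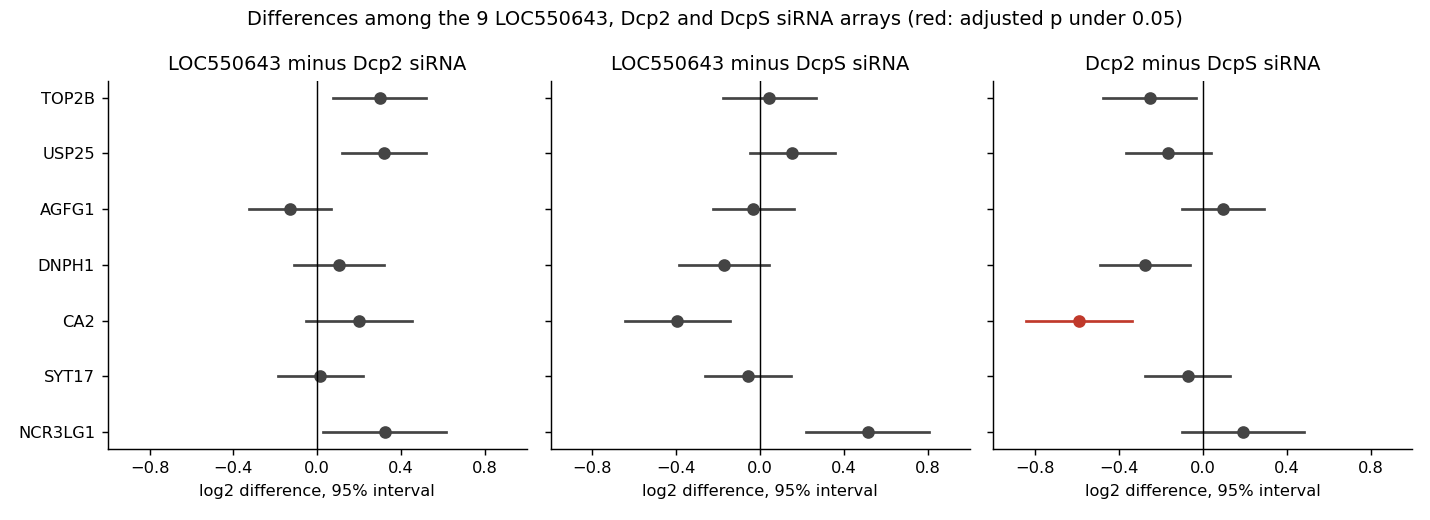
Differences among the LOC550643, Dcp2 and DcpS siRNA groups for each gene in log2 units, first group minus second, with 95% intervals from the 9-array limma model. CA2 between Dcp2 and DcpS siRNA, in red at -0.59, is the one difference past the threshold.

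The genes went together to different degrees once the GAPDH siRNA arrays were set aside. Over the 12 other arrays the correlation of USP25 with TOP2B was 0.84 and that of DNPH1 with CA2 was 0.90. AGFG1 ran the other way, with correlations of -0.39 with TOP2B, -0.56 with USP25, -0.61 with DNPH1 and -0.72 with SYT17. Over the 9 arrays that leave out the non-silencing group too, these were -0.52, -0.64, -0.35 and -0.07, so the value with SYT17 rested on the non-silencing arrays. The median over the 21 pairs of genes was 0.34 over these 12 arrays and 0.37 over the 9 arrays of the LOC550643, Dcp2 and DcpS groups, where 12 of 21 pairs were positive. These are descriptions of arrays that share the axis named above, on which AGFG1 also had the opposite sign.

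**Figure D4:**
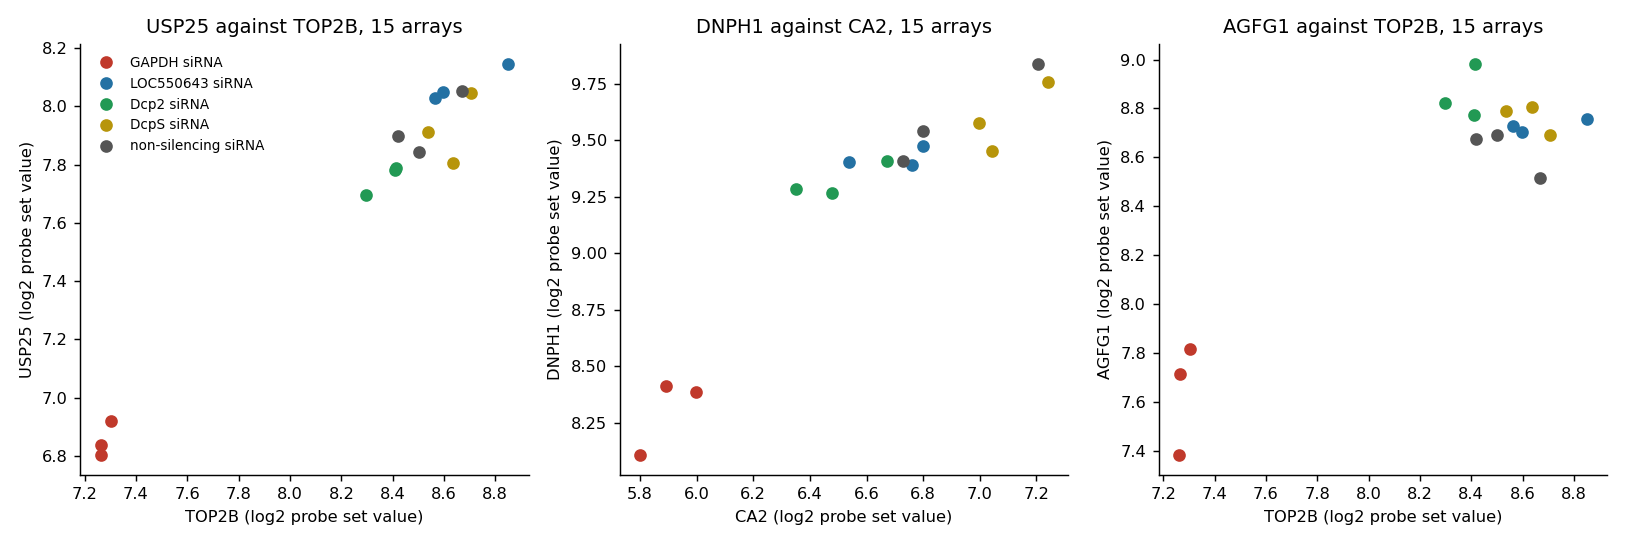
Log2 probe set values of USP25 against TOP2B, DNPH1 against CA2 and AGFG1 against TOP2B, each point 1 of 15 arrays coloured by siRNA group. Outside the GAPDH siRNA arrays at the lower left, USP25 tracks TOP2B (0.84 over 12 arrays) and DNPH1 tracks CA2 (0.90), whereas AGFG1 does not rise with TOP2B (-0.39).

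Among all named genes, those most like the mean profile of the 7 over the 15 arrays were SMS (spermine synthase, Pearson correlation 0.95), FCF1 (a factor of ribosome assembly, 0.95), ATMIN (a regulator of the ATM kinase, 0.95), COMMD6 (0.93), LYN (a tyrosine kinase, 0.93), DBN1 (drebrin, an actin-binding protein, 0.93), SCAMP2 (a carrier membrane protein, 0.93) and GAPDH (0.93). Over the 12 arrays without GAPDH siRNA the correlation was 0.65 for SMS, 0.54 for LYN, 0.45 for DBN1, 0.20 for COMMD6, 0.14 for ATMIN, 0.12 for FCF1, 0.04 for SCAMP2 and -0.41 for GAPDH. For most of these genes the likeness thus lay largely in the GAPDH siRNA arrays, on which the 7 genes were chosen. By single genes, USP25 was the gene most like TOP2B of all named genes, and TOP2B the most like USP25 (0.99 over 15 arrays). ATMIN and FCF1 came next for both, with correlations over the 12 other arrays of 0.57 and 0.43 for TOP2B and of 0.43 and 0.26 for USP25. AGFG1 was most like PTBP1, a splicing regulator (0.97, and 0.90 over the 12 other arrays), followed by FCF1 and SCAMP2, whose correlations over the 12 were 0.21 and 0.18. DNPH1 was most like TOP2B, SMS and USP25, at 0.56, 0.67 and 0.45 over the 12 others. CA2 was most like NPAS2, a clock transcription factor (0.96, and 0.92 over the 12 others), DNPH1 (0.90 over the 12) and RHOT1 (0.78 over the 12). SYT17 was most like LYN, DNPH1 and RPAP1, at 0.78, 0.73 and 0.64 over the 12 others. NCR3LG1 was most like VAMP7, a membrane fusion protein (0.95, and 0.92 over the 12 others), DBNDD2 (0.80 over the 12) and NUBP1 (0.76 over the 12).

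Relatives of the 7 genes, in 8 lists that leave out the genes themselves, were tested in GAPDH against non-silencing siRNA. Of 145 measured relatives 5 fell and 1 rose, or 4.14%, where limma called 2.0% of all genes, 1.27% as lower and 0.726% as higher. An unadjusted p under 0.05 was found for 34 of them, against 13.6% of all genes. Their median difference was -0.02.

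Of 10 measured topoisomerases and factors that repair their cleavage complexes, 1 fell and 0 rose (median -0.10). TOP3A, a topoisomerase that unlinks recombination intermediates, was at 6.84, 6.67 and 6.60 in GAPDH siRNA arrays and 7.14, 7.34 and 7.30 in non-silencing arrays, and fell by 0.56 (SE 0.12, limma adjusted p = 0.0244). The highest of these GAPDH siRNA arrays, at 6.84, lay just below a DcpS siRNA array at 6.86, and TOP3A with DcpS siRNA was at -0.26 against the control. Its 3 GAPDH siRNA arrays were nevertheless the lowest of all 15. The same held for 9 of the 145 relatives, TOP3A, CA11 and SMAP2 among them, against 1.64% of all genes. TOP2A, the topoisomerase II of dividing cells and nearest relative of TOP2B, was at 10.6, 10.5 and 10.7 with GAPDH siRNA and 10.6, 10.8 and 10.8 with non-silencing siRNA, a difference of -0.14 (limma adjusted p = 0.553). Among 11 cohesin, CTCF and loop factors, which work at the same chromatin sites as TOP2B, 0 were called by limma and 4 had an unadjusted p under 0.05 (median -0.05).

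Of 43 measured ubiquitin-specific proteases, limma called 0, with 6 at an unadjusted p under 0.05 (median 0.03). USP28, the nearest relative of USP25, was at 8.54, 8.49 and 8.33 in GAPDH siRNA arrays and 8.94, 8.71 and 8.73 in non-silencing arrays, a difference of -0.34 (limma adjusted p = 0.0877, or 0.0460 with dim genes left out). It stood at -0.31, -0.34 and -0.39 with LOC550643, Dcp2 and DcpS siRNA against the same control arrays, close to its value with GAPDH siRNA. Of 10 measured ARF GTPase-activating proteins, 2 fell and 0 rose (median -0.16). ARFGAP3, which acts on ARF at the Golgi, fell by 0.47 (SE 0.10, limma adjusted p = 0.0267), and its level was lower still with DcpS siRNA, where it was at -0.81 against the control. SMAP2, an ARF regulator of clathrin-coated vesicles, fell by 0.40 (limma adjusted p = 0.0483). AGFG2, the nearest relative of AGFG1, differed by 0.12 (limma adjusted p = 0.732).

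Of 18 measured nucleotide pool enzymes, relatives of DNPH1 by function, limma called 0, with 2 at an unadjusted p under 0.05 (median 0.06). Of the list of carbonic anhydrases and bicarbonate transporters, 10 carbonic anhydrase family genes and no transporter were measured, of which 1 fell and 0 rose (median -0.06). CA11, a carbonic anhydrase-related protein without enzyme activity, was at 7.23, 7.30 and 7.28 in GAPDH siRNA arrays and 7.73, 7.88 and 7.64 in non-silencing arrays, and fell by 0.48 (SE 0.09, limma adjusted p = 0.00745). CA12, a membrane carbonic anhydrase, and CA13, a cytosolic one, differed by -0.25 and -0.07 (limma adjusted p = 0.327 and 0.879). Of 24 measured synaptotagmins and related proteins, 1 fell and 0 rose (median -0.08), namely SYT3, by 0.54 (limma adjusted p = 0.0476). SYT3 also stood at -0.26, -0.42 and -0.12 with LOC550643, Dcp2 and DcpS siRNA against the same control arrays. A Dcp2 siRNA array, at 5.08, lay below the highest GAPDH siRNA array, at 5.31. Of 19 natural killer cell ligands and B7 proteins, 0 fell and 1 rose (median -0.02), namely NECTIN2, an adhesion protein bound by receptors of natural killer cells, by 0.36 (limma adjusted p = 0.0483). NECTIN2 was also higher with DcpS siRNA (0.56).

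Most of these calls were close to the threshold. CA11 lost its call in 1 of the alternatives, the fit of only the 6 compared arrays, TOP3A in 5 and ARFGAP3 in 7. SYT3, NECTIN2 and SMAP2 lost theirs in 16, 18 and 19 (limma adjusted p 0.0523 to 0.205), in most cases when a single array was left out.

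**Figure D5:**
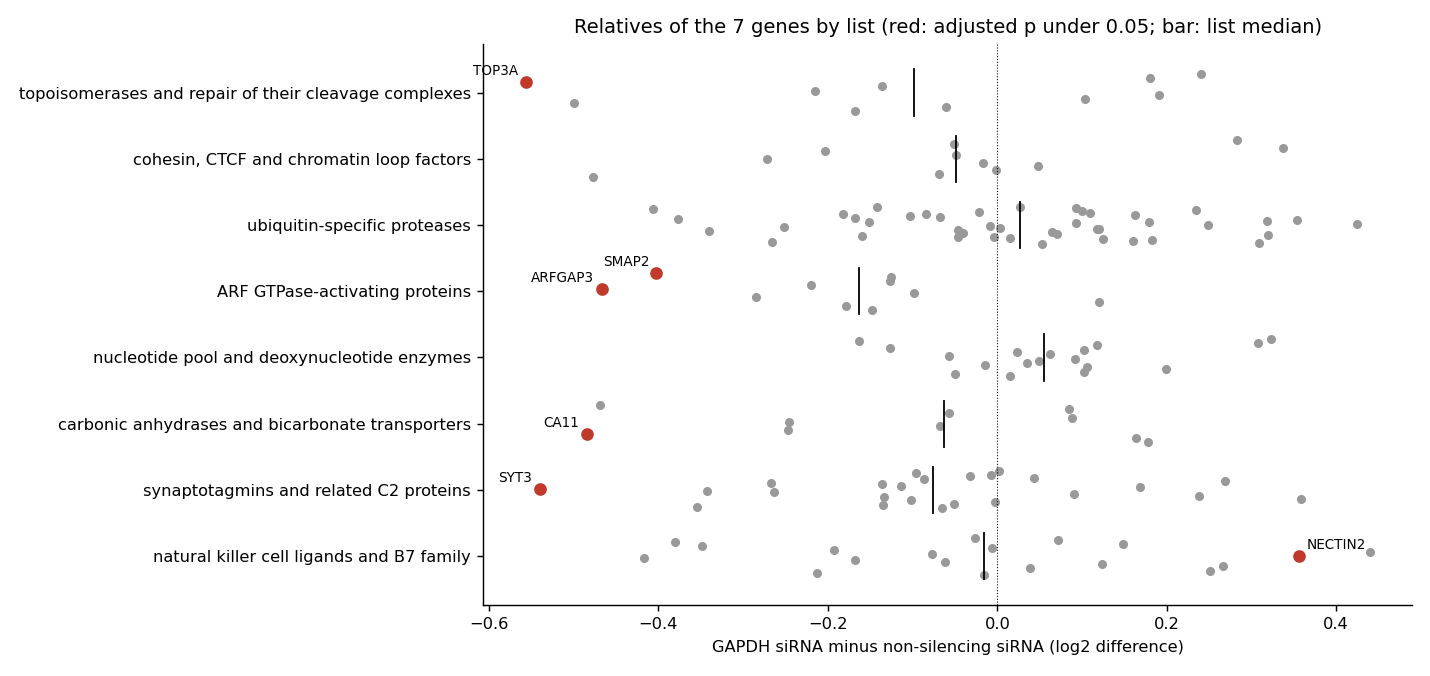
Difference GAPDH minus non-silencing siRNA in log2 units for each measured relative, by list, with called genes in red and list medians as bars. The 145 relatives lie between -0.56 (TOP3A) and 0.44 (PVR), and the 6 called ones are named; of the list with bicarbonate transporters only carbonic anhydrase family genes were measured.

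Position was examined through the 2 nearest measured protein-coding genes on each side of each of the 7 genes, 28 neighbours in all. With GAPDH against non-silencing siRNA limma called 0 of them, against 2.0% of all genes. Their differences ranged from -0.37 for CHODL, near USP25, to 0.42 for NKIRAS1, the nearest measured gene on one side of TOP2B (limma adjusted p = 0.0759), with a median of 0.01. NGLY1, on the other side of TOP2B, was at -0.13, and CUL9 and TTBK1, beside DNPH1, were at -0.07 and 0.04. NKIRAS1 was called as higher in 3 alternatives, with the replicate block, with dim genes left out and with the axis score (limma adjusted p 0.0219 to 0.0405).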

How the data were processed

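Total RNA of 15 samples was hybridised to Affymetrix arrays, and groups and replicate numbers came from the sample labels. The deposited values are probe set summaries on a log2 scale, a base inferred from their range. The authors used RMA and the oligo package, per the submitters' processing notes; versions, probe set definition and genome build are not given in the sources used here. RMA includes quantile normalization, which cannot show a shift of all transcripts. No detection calls were used. Of 53617 probe sets, 16098 had 1 gene symbol in the platform table, 0 several and 37519 none here; all 16098 gene IDs matched RefSeq. For the 779 genes with several probe sets the brightest was kept, leaving 14884.

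Linear models were fitted to these values in R 4.3.3 with limma 3.58.1 (two-sided moderated test, Benjamini-Hochberg over 14884 genes, threshold 0.05): LOC550643, Dcp2 and DcpS siRNA on their 9 arrays (6 residual degrees of freedom), and GAPDH against non-silencing siRNA on all 15 (10 residual degrees of freedom). SEs of described differences come from the 15-array fit. The fits were tested on simulated data with independent noise for each gene and array. That noise lacked the axis shared by the real arrays, so the simulation does not cover its effect on the calls. Figures were drawn with matplotlib 3.10.9.

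The 7 genes and the gene lists were chosen with earlier results of these data known. Named were the 7 genes, the targeted genes with a probe set (GAPDH; DCP2 is not described), called relatives, nearest relatives and the genes of highest correlation, small RNAs and olfactory receptors left out. The single marker genes, CD63, PVR, CHODL, NKIRAS1 and the genes beside them were named after their values were seen. Knockdown of LOC550643 and DcpS is not analysed here, as neither gene has a probe set named in the platform table. Alternatives were a replicate block, other array sets, quantile normalization, median centring, a filter at a mean of 5, the mean of probe sets, all probe sets, an axis covariate and leaving out each array.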

Additional observations from a re-analysis of the deposited data

How the results depend on the processing

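All 7 genes kept their 3 lowest values in the GAPDH siRNA arrays after quantile normalization and after median centring. Leaving out an array cannot change that order, and the genes were chosen on these arrays, so nothing is read from it. The median difference of the 7 genes from non-silencing siRNA stayed between -0.996 and -1.09. Between LOC550643 and Dcp2 siRNA 0 of the 7 were called in any alternative. Between LOC550643 and DcpS siRNA the count was 1 after median centring, 2 with dim genes left out, 2 with the axis score, and 0 to 1 with an array left out. Between Dcp2 and DcpS siRNA it was 0 with all probe sets tested and 0 to 1 with an array left out. The 6 called relatives became 3 with the replicate block, 3 after quantile normalization, 3 after median centring, 0 when only the 6 compared arrays were fitted, 12 with the axis score and 1 to 5 with an array left out, the lowest counts coming without GAPDH siRNA replicate 2 or non-silencing replicate 3. The called neighbours became 1 with the replicate block, 1 with dim genes left out and 1 with the axis score. Over all genes, limma called 297 in GAPDH against non-silencing siRNA, but 44 with only the 6 arrays, 139 without non-silencing replicate 2, 146 without GAPDH replicate 1, 182 without GAPDH replicate 3, 176 without non-silencing replicate 1 and 499 with the axis score. For LOC550643 against Dcp2 siRNA it called 352, but 633 with dim genes left out, 162 with all probe sets and 62 to 99 without any 1 Dcp2 siRNA array or without LOC550643 replicate 1 or 2. For LOC550643 against DcpS siRNA it called 751, but 446 with only the 6 arrays and 396, 425 and 465 without LOC550643 replicate 1, LOC550643 replicate 2 and DcpS replicate 1. For Dcp2 against DcpS siRNA it called 738, but 462 with only the 6 arrays, 1118 with dim genes left out, 415 with all probe sets, and 266, 263, 374 and 365 without Dcp2 replicates 1, 2 and 3 and DcpS replicate 1. Array sets with fewer samples test with less precision by construction; other causes were not tested. Deviations of same-numbered arrays of different groups correlated from -0.20 to 0.39 (median 0.02 over 30 pairs). For arrays with different numbers the range was -0.31 to 0.29 (median 0.001 over 60 pairs). Whether same-numbered samples were prepared together was not tested. The number of arrays, 3 a group, limits the precision of all values.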

Other observations

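Probe sets without a gene name here were outside all comparisons above. Of these 37519 probe sets, 218 (0.581%) had their 3 lowest values in the GAPDH siRNA arrays, against 237 of the 14877 genes other than the 7 (1.59%). A correlation above 0.9 with the mean profile of the 7 genes over 15 arrays was found for 13 unnamed probe sets and 20 other genes. The unnamed probe set most like that profile, 16784412, was at a mean of 6.37 with GAPDH siRNA and 7.74 with non-silencing siRNA (correlation 0.97), and the next, 16870144, was at 6.55 and 7.97 (correlation 0.94). Both were lower with GAPDH siRNA by more than any of the 7 genes, by -1.36 and -1.43. What they measure was not analysed here.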
